A study of Mus musculus with 31 samples.

Results

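Of 16 RNA-seq libraries of epididymal white fat (eWAT, a visceral depot attached to the epididymis), 4 held transcripts of late male germ cells well above the level of the other 12. They are the libraries labelled LF 3, LF 6, HF 2 and HF 6, out of 31 libraries in the series, the other 15 being from liver. They were chosen by a threshold on measured values: the mean log2 CPM (CPM, counts scaled to a common library size; prior count 2) of Prm1, Prm2, Tnp1, Tnp2 and Ldhc had to exceed 1. These 5 are called the rule genes below. All animals were wild-type C57BL/6 males of the F1 generation, 24 weeks old, and all were fed chow up to 6 weeks of age and a low-fat diet (LFD) for the 18 weeks that followed. The arms carry the diet tags LFD (LF, 4 eWAT libraries), HFD (HF, 6) and HFLFD (HFLF, 6). Since feeding was the same for all, the tag was taken to name the diet of the paternal line. That reading rests on the series title, which speaks of paternal transmission, and no label spells it out. The 4 testis-rich libraries comprised 2 of LF, 2 of HF and none of HFLF. Their totals ran from 9278083 to 17441567 counts, within the 9278083 to 27230205 of all 16. LF 2, HF 3 and HF 5, all outside the 4, stood apart by B cell genes, with a mean log2 CPM of 6.14, 4.03 and 4.90 over the list against 0.99 to 2.47 in the other 13. How the fat pad was dissected, and whether each number is a separate litter, no source used here says, so p-values measure the spread between these samples.

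Late in spermatogenesis the spermatid replaces its histones first with transition proteins (Tnp1, Tnp2) and then with protamines (Prm1, Prm2). It also builds an acrosome and a tail. Transcription stops as the nucleus condenses, and messages made earlier are stored and translated later. Many of these genes are switched on after meiosis by the transcription factor CREM through cAMP response elements close to the start site. The epididymal fat pad lies against the epididymis and testis in the male mouse, and fat cells themselves are not known for protamine transcription. Which cells the transcripts came from was not tested.

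Promoter sequences are shown for 2 rule genes and for 7 genes that followed them through the libraries, because a cAMP response type element recurred in these windows. The motif searched was TGACNTCA on both strands. It includes the palindrome TGACGTCA, which no line below holds, and on the opposite strand a match reads, for example, TGATGTCA. Each line gives the 120 bases directly before an annotated start, 5′ to 3′ on the gene's strand, from RefSeq on GRCm38.p6, with matches in capitals.
Prm1 (chr16:10796824-10796943, minus strand): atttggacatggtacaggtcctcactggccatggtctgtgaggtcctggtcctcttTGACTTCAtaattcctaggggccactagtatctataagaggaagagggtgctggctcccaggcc
Tnp1 (chr1:73015900-73016019, minus strand): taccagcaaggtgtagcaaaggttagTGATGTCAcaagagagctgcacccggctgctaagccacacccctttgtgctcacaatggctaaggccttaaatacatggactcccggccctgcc
Gsg1 (chr6:135254337-135254456, minus strand): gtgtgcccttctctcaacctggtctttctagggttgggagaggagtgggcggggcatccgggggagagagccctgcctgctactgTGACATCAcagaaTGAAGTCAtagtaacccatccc
Akap3 (chr6:126852978-126853097, plus strand): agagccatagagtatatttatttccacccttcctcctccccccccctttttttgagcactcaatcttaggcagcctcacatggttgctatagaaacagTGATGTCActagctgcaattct
Gapdhs (chr7:30739408-30739527, minus strand): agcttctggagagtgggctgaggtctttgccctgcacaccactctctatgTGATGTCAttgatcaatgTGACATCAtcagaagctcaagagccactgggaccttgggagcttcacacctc
Spata20 (chr11:94485311-94485430, minus strand): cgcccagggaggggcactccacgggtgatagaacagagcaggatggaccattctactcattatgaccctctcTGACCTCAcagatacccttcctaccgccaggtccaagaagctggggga
Nt5c1b (chr12:10369851-10369970, plus strand): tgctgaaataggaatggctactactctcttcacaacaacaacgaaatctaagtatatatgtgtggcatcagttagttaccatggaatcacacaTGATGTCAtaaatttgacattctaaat
Fam71f2 (chr6:29281021-29281140, plus strand): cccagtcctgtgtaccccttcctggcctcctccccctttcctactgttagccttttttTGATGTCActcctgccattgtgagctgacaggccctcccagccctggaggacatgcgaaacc
1700009N14Rik (chr4:39450173-39450292, plus strand): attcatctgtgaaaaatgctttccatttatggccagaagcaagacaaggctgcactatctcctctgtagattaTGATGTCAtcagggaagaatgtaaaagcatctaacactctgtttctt

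In the Prm1 promoter the match TGACTTCA lay 64 bases before the start, and in that of Tnp1 the match TGATGTCA lay 94 bases before it. Gsg1 and Gapdhs each held 2 matches within the 120 bases shown. Over the full 250 bases before the start, 11 of the 40 followers with a RefSeq promoter (27.5%; 50 followers in all) had at least 1 match, as did 2 of the 5 rule genes. The same motif was in 849 of 11570 eWAT genes with a promoter (7.34%) and in 8.55% of all 27025 genes of the promoter table. The palindrome TGACGTCA alone was in 2 of the 40 followers (5.0%), against 2.83% of eWAT genes, and in 0 of the 5 rule genes. Counted by start site, 13 of 59 windows of followers held TGACNTCA (22.0%), against 910 of 14777 windows of eWAT genes (6.16%). For the palindrome alone these were 2 windows of followers (3.39%) and 350 of eWAT genes (2.37%). Besides the 7 printed, the followers with a match were 1700003F12Rik, Fam187b, Kif17 and Pgam2. A match describes letters in a window and is not evidence that a factor binds there.

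The rule genes set the division, so their values are given as a description, without a test. Prm1 (chr16:10796326-10805839) encodes a protamine that packs the sperm nucleus, and it stood at 6.57 CPM in LF 3, 2.05 in LF 6, 12.9 in HF 2 and 21.9 in HF 6, against at most 0.893 in the other 12. Prm2 (chr16:10791380-10796134), the second protamine, stood at 5.62, 9.23, 29.3 and 45.0 CPM in the same order, against at most 1.08. Tnp1 (chr1:73015074-73015909) and Tnp2 (chr16:10787936-10788660) encode the transition proteins. The level of Tnp1 was 3.29, 1.20, 6.92 and 12.5 CPM. That of Tnp2 was 5.62, 2.99, 12 and 23.3 CPM, with no value above 1.02 in the other libraries. Ldhc (chr7:46861203-46878142), the lactate dehydrogenase of germ cells, had 2.12, 2.48, 12.8 and 12.9 CPM. Both HF libraries were thus above both LF libraries for each of the 5 genes. Prm2, Prm1 and Tnp2 are neighbours on chromosome 16. Coordinates are those of the GENCODE annotation of GRCm38.

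**Figure D1:**
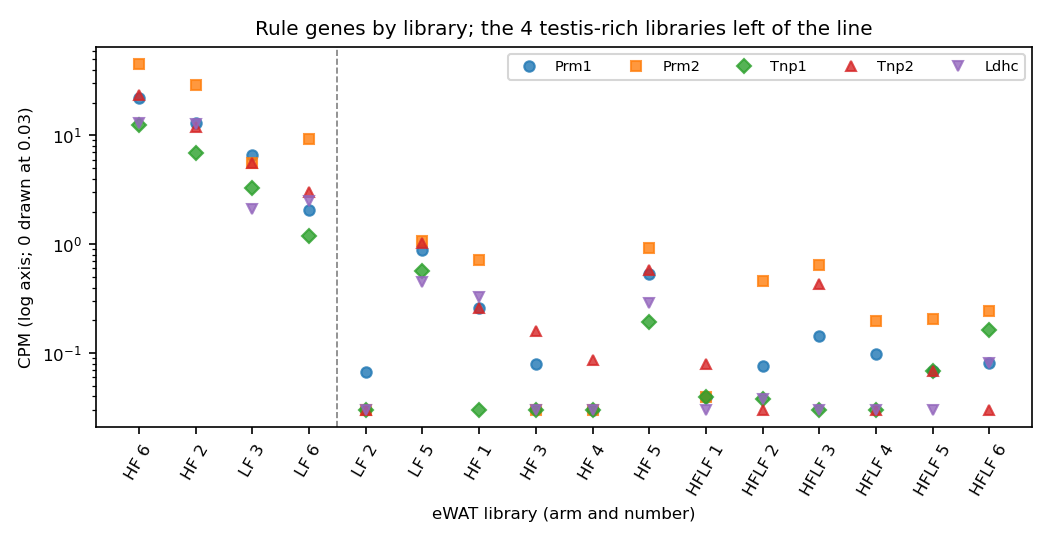
Level of the 5 rule genes in each eWAT library, in CPM on a log axis, 1 point per gene and library, with a level of 0 drawn at 0.03. HF 6 and HF 2 lie highest, LF 3 and LF 6 follow, and LF 5 is the nearest of the 12 libraries right of the dashed line.

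The threshold fell in a gap. The mean log2 CPM of the rule genes was 4.37 in HF 6, 3.74 in HF 2, 2.15 in LF 3 and 1.56 in LF 6, the library just inside. The libraries just outside were LF 5 at -0.15 and HF 5 at -0.78, and the lowest was LF 2 at -2.80. Summed over the 5 genes, the level was 116, 74.0, 23.2 and 17.9 CPM in HF 6, HF 2, LF 3 and LF 6. LF 5 had 4.02 CPM, HF 5 2.51, HF 1 1.57, and none of the other 9 more than 1.21. Traces of rule gene counts were therefore present outside the 4 libraries too, in LF 5 and HF 5 above all.

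The protamine messages are also described by their balance in each library, which is 1 sample each and has no replicate check. Prm2 made up 46.1% of the Prm1 and Prm2 counts in LF 3 (53 Prm2 and 62 Prm1 counts; 95% exact Clopper-Pearson interval 36.8% to 55.6%). The share was 81.8% in LF 6 (74.2% to 88.0%), 69.4% in HF 2 (65.0% to 73.6%) and 67.3% in HF 6 (64.5% to 70.0%). The intervals reflect counting error alone, as amplified reads carrying no molecular identifier may stem from 1 molecule, and they leave out the spread between samples. Over the 4 libraries the ratio to Prm1 ran from 0.5 to 0.583 for Tnp1, from 0.855 to 1.46 for Tnp2 and from 0.323 to 1.21 for Ldhc. Ratios between genes were not corrected for length and are compared between libraries alone.

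To sort all genes by how they followed this division, the 4 libraries were set against the 12 with arm as a covariate (edgeR's quasi-likelihood test, Benjamini-Hochberg adjustment over 15987 genes, threshold 0.05). Because the division was made on values of the same libraries, a call says that a gene followed it, and is not a test of a condition. HFLF held none of the 4, so that only LF (2 libraries against 2) and HF (2 against 4) carry the contrast. By this measure 55 genes were higher in the 4 libraries (0.344% of those tested) and 2 were lower (0.0125%). The 55 include the 5 rule genes, and the remaining 50 are called followers. Without LF 2, HF 3 and HF 5 there were 23 higher genes, all among the 55, and 0 lower. At an unadjusted p under 0.05 there were 631 higher (3.95%) and 642 lower genes (4.02%). The lowest of the 4 libraries exceeded the highest of the 12 for 66 genes (0.413%), among them the rule genes and 38 of the 50 followers. In bulk tissue, fewer cells of a type and less RNA per cell cannot be told apart.

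**Figure D2:**
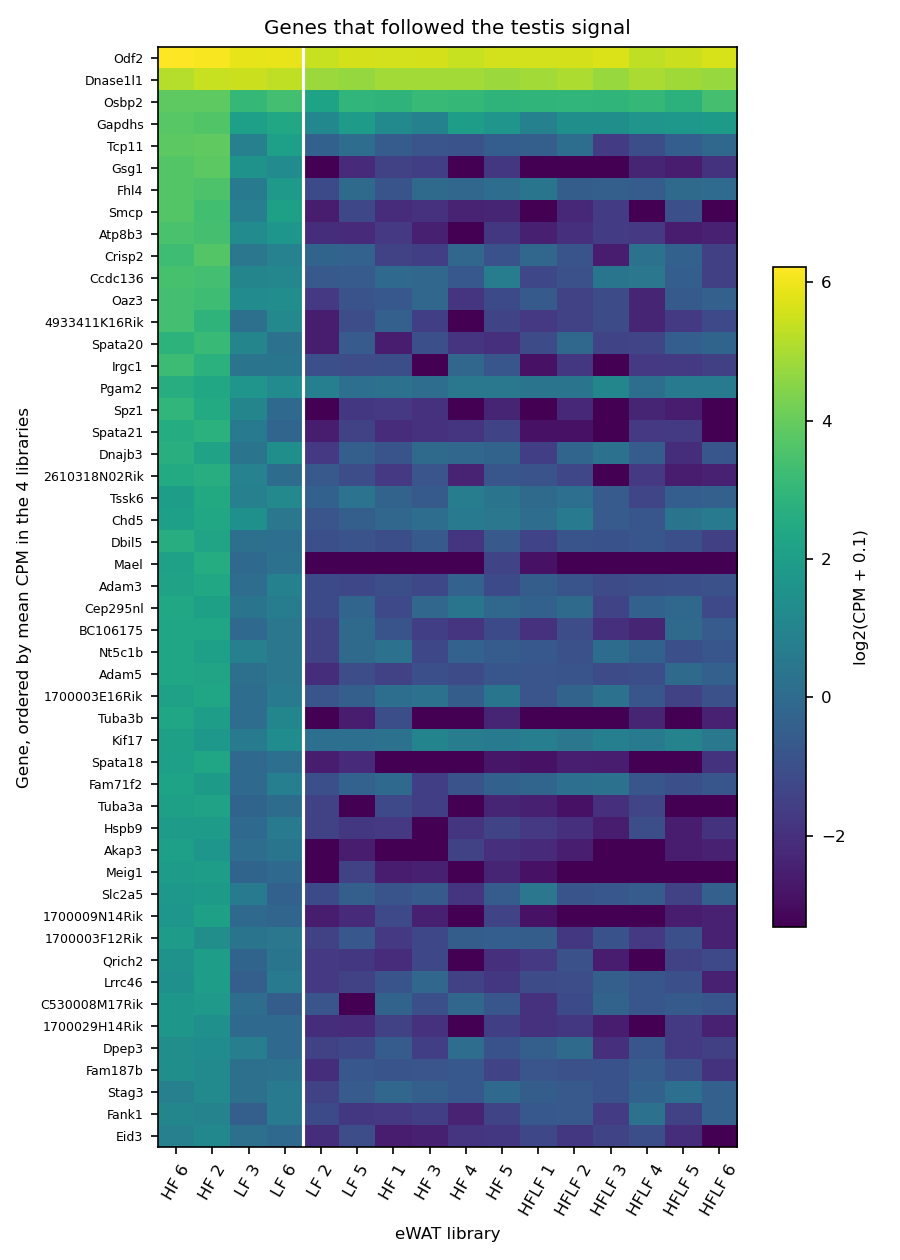
Level of the 50 followers (rows) in the 16 eWAT libraries (columns), as log2(CPM + 0.1) by colour, with the 4 testis-rich libraries left of the white line. HF 6 and HF 2 are brightest for nearly all rows, and Odf2, Dnase1l1 and Osbp2 are also well expressed in the other 12 libraries.

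Genes of the sperm tail supplied the largest group. Of 52 genes listed for tail and sheath, 27 were measured. Of these, 8 were higher in the 4 libraries (29.6%, against 0.344% of all genes) and none lower. The median log2 fold change over the measured members was 0.77, against 0.00 over all genes. For 4 of the 27, fewer than 3 of the 12 libraries reached 0.5 CPM. Such genes entered the table largely through the 4, so calls and median are partly fixed by that. Smcp (chr3:92583867-92588997), a protein of the mitochondrial sheath, stood at 1.59 CPM in LF 3, 4.19 in LF 6, 9.92 in HF 2 and 12.6 in HF 6, against 0 to 0.409 in the 12 (log2 fold change 5.54 ± 0.62 SE, adjusted p = 0.000251). Akap3, an anchoring protein of the fibrous sheath, had 0.954, 1.20, 3.10 and 4.06 CPM, against at most 0.262. Oaz3, the antizyme of spermatids, had 2.33, 2.48, 9.38 and 10.1 CPM, against at most 0.794. For all 3 genes the groups did not overlap. Smcp and Akap3 reached 0.5 CPM in 0 of the 12 and could enter the table only through the 4, which fixes their gap. Tcp11, a protein linked to sperm motility, was higher by 3.62 ± 0.47 on the log2 scale, with 1.70 CPM in LF 3 and 14.8 in HF 2. The other tail genes called were Spata18, Dnajb3, Gsg1 and Odf2.

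Odf2 (chr2:29889221-29931746) encodes a protein of the outer dense fibres of the tail that is also part of the centriole in other cells. It was at 58.6 CPM in LF 3, 60.2 in LF 6, 69.8 in HF 2 and 74.4 in HF 6, against 39.8 to 52.5 in the 12. The 4 libraries lay above all others although the log2 fold change was only 0.53 ± 0.08. General cilium genes of the list did not pass: Ccdc39 (3.75 CPM on average in the 4 and 4.05 in the 12), Tekt2 (4.53 and 4.10) and Hydin (0.951 and 0.790). For genes near 0 in the 12 libraries, such as Smcp, the size of a fitted fold change depends on the prior count.

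Acrosome and spermatid genes were split. Of 44 listed genes, 15 were measured and only Gsg1 and Tssk6 were called (13.3%, against 0.344% of all genes). The list median was 0.15. Gsg1 (chr6:135237326-135254351), a membrane protein of germ cells, had the largest fitted fold change of all followers: 2.86 CPM in LF 3, 2.31 in LF 6, 13.8 in HF 2 and 12.7 in HF 6, against at most 0.262 (5.93 ± 0.49, adjusted p = 1.6e-05). Tssk6, a kinase of spermatids, averaged 3.30 CPM in the 4 and 0.816 in the 12 (1.79 ± 0.33). Acr, which encodes acrosin, averaged 4.65 and 3.52 CPM and did not pass (0.45, adjusted p = 0.633), nor did Acrbp, Spaca1, Izumo1 or Crem itself (12.4 and 12.5 CPM). Several of the genes that did not pass had a level in the 12 libraries near that in the 4.

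Outside the list, Atp8b3 (chr10:80519584-80539124), a lipid flippase of the acrosome, gave the smallest adjusted p of all. It measured 2.33 CPM in LF 3, 3.16 in LF 6, 10.6 in HF 2 and 11.2 in HF 6, against 0 to 0.214 in the 12 (5.69 ± 0.39, adjusted p = 2e-06). Atp8b3 reached 0.5 CPM in 0 of the 12 and could enter the table only through the 4, which fixes its gap. Crisp2, a secretory protein stored in the acrosome, had 1.27, 1.79, 12.6 and 9.49 CPM, against at most 1.08. Ccdc136, needed for acrosome formation, had 1.91, 2.05, 10.2 and 10.9 CPM, against at most 1.5. For Crisp2 and Ccdc136 the LF libraries lay just above the highest of the 12, and the HF libraries far above it. Adam3 and Adam5, sperm surface proteins, were higher by 2.95 ± 0.30 and 3.15 ± 0.33.

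Chromatin and manchette genes of spermatids gave 2 calls among 8 measured of 22 listed (25%, against 0.344% of all genes). The list median was 0.08. Chd5, a chromatin remodeller needed for the exchange of histones for protamines, averaged 3.26 CPM in the 4 and 0.957 in the 12 (1.95 ± 0.30), though the groups overlapped. Meig1, a manchette protein, had 0.742 CPM in LF 3, 0.855 in LF 6, 3.82 in HF 2 and 3.72 in HF 6, against at most 0.255 (4.61 ± 0.56). Meig1 reached 0.5 CPM in 0 of the 12 and could enter the table only through the 4, which fixes its gap.

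Energy metabolism in spermatids relies on isozymes of its own. Of 18 listed isozymes, 4 were measured and Gapdhs was called (25%, against 0.344% of all genes). Gapdhs (chr7:30729775-30743681), the glyceraldehyde-phosphate dehydrogenase of the fibrous sheath, stood at 4.13 CPM in LF 3, 5.13 in LF 6, 12.4 in HF 2 and 13.1 in HF 6, against 1.71 to 3.85 in the 12 (1.62 ± 0.29, adjusted p = 0.0162). Atp1a4, the sodium pump subunit of sperm, reached 5.74 CPM in HF 2 and 7.61 in HF 6 but 0.954 in LF 3, within the range of the 12, and did not pass (adjusted p = 0.353). Among 24 glycolysis genes 1 was called (4.17%), Pgam2, the phosphoglycerate mutase of muscle and testis. It had 3.07 CPM in LF 3, 2.31 in LF 6, 5.01 in HF 2 and 6.12 in HF 6, against 0.952 to 2 (1.76 ± 0.26). Slc2a5, the fructose transporter, also followed (2.23 ± 0.43), with overlap between the groups.

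Of 40 genes listed for meiotic spermatocytes, 17 were measured and Adam3 and Stag3 were called (11.8% of those measured, against 0.344% of all genes). Adam3 is the sperm surface protein named above, which leaves Stag3 as the call of a meiotic protein. The list median was 0.13, with -0.22 within LF and 0.35 within HF. Stag3, a meiotic cohesin, averaged 1.57 and 0.632 CPM (1.44 ± 0.28). Sycp3, a protein of the synaptonemal complex, averaged 12.9 and 14.4 CPM, Prdm9 9.39 and 10.9, and Ybx2 17.9 and 13.4, none of which passed. Of 6 measured piRNA pathway genes of 20 listed, Mael alone was called (16.7%, against 0.344% of all genes). Mael had 0.848 CPM in LF 3, 1.11 in LF 6, 5.83 in HF 2 and 4.35 in HF 6. In the 12 it had at most 0.290 CPM and a total of 7 counts (5.74 ± 0.59). No call was made among the 5 measured of 20 genes of spermatogonia, whose median was -0.20. Zbtb16 and Kit, in that list, averaged 129 and 18.0 CPM in the 4 and 141 and 18.5 in the 12. Both are also expressed in cells other than spermatogonia.

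Of the 50 followers 15 belonged to these germ cell lists, which hold 80 of all 15987 genes tested. The lists were chosen with earlier results of these data known. Among the rest were Fhl4, a LIM-domain protein (3.26 ± 0.37), the basic helix-loop-helix factor Spz1 (5.19 ± 0.56), and Hspb9, a small heat shock protein (3.61 ± 0.47). The other uncharacterised or less studied members included 4933411K16Rik, at 1.06, 2.14, 7.28 and 10.1 CPM in LF 3, LF 6, HF 2 and HF 6 against at most 0.655. Dnase1l1, a nuclease gene, was the only follower on the X chromosome. It stood at 44.1 CPM in LF 3, 39.5 in LF 6, 43.2 in HF 2 and 35.3 in HF 6, against 26.2 to 32.9. It was also the only follower that was highest in an LF library. Tuba3a and Tuba3b, alpha-tubulin genes with near-identical coding sequences, were both called, and no source used here says how counting divided reads between them, so their split is uncertain.

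Gene type, exon number and position were not used to choose the followers. Protein-coding genes made up 49 of 50 (98.0%), against 87.2% of all genes tested. Single-exon genes made up 6 of 50 (12%, against 6.64%). The 50 lay on 16 chromosomes, with 1 on X (2%, against 3.05%) and none on Y, which holds 0.0438% of all genes tested. One limit bears on the count itself. Every gene in the table reached 0.5 CPM in at least 4 libraries, and 16 followers (32.0%, against 0.231% of all genes) reached it in exactly the 4 testis-rich ones, so these could enter the table only by being higher there. In 23 of the 50, fewer than 3 of the 12 libraries reached 0.5 CPM. Calls in several germ cell lists include such genes, among them Gsg1, Meig1 and Mael. Atp8b3, outside the lists, is another.

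The contrast within each arm rests on separate libraries, although the followers were chosen on both together, so a shared direction is partly fixed by the choice. All 50 were higher in the testis-rich libraries of LF and of HF, with a median log2 fold change of 1.88 in LF and 3.69 in HF, against 0.00 and -0.01 over all genes. In LF alone 1 follower was called, Atp8b3 (4.31, adjusted p = 0.0329), out of 1 gene called higher in all (0.00626%). Atp8b3 could enter the table only through the testis-rich libraries, which partly fixes this call. Within HF 45 followers were called, out of 63 genes called higher (0.394%). The difference between the arms was itself tested. It was negative, thus smaller in LF, for 46 of 50 followers, against 8065 of all 15987 genes. The 50 share the same few libraries, so they do not count as separate observations. Of the followers 0 passed (smallest adjusted p 0.403 by edgeR, with 19 of 50 at an unadjusted p under 0.05). Over all genes 0 passed as well, with 1619 at an unadjusted p under 0.05, 18 by DESeq2, of which 2 were followers, and 0 by limma voom. Without LF 6 the count was 111, of which 1 was a follower.

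**Figure D3:**
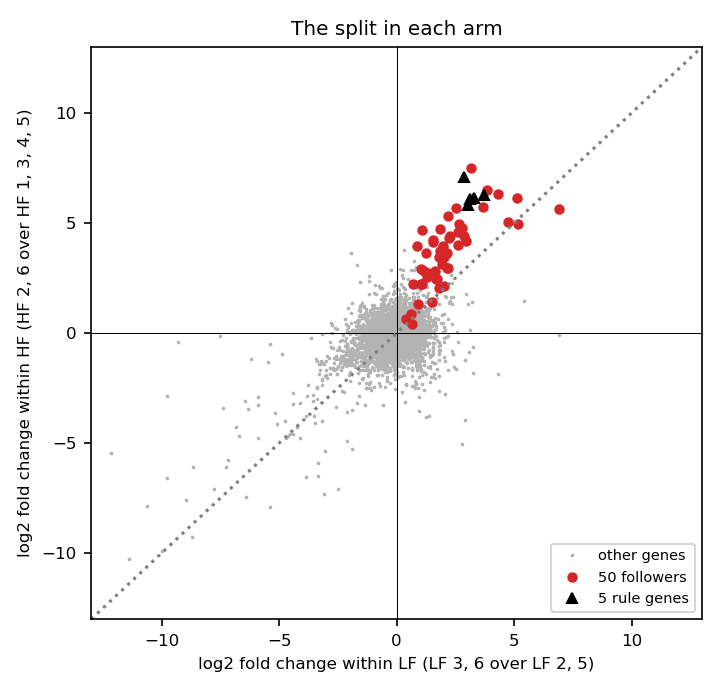
Log2 fold change of each gene within LF (x axis, LF 3 and LF 6 over LF 2 and LF 5) and within HF (y axis, HF 2 and HF 6 over the other 4 HF libraries). Followers (red) and rule genes (black) lie in the upper right, mostly above the dotted line of equal change, with medians of 1.88 and 3.69 for the followers.

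The levels of the followers in the 4 libraries divided by arm. Both HF libraries were above both LF libraries in 49 of 50 (98.0%, against 19.5% of all genes). As the 50 share these 4 libraries, this is in effect a single ordering of 2 HF and 2 LF libraries. It is not a test of the arms. The highest value was in HF 6 for 28 followers, in HF 2 for 21 and in LF 3 for 1. Next, the 4 libraries are compared with each other over the 31 followers that averaged under 0.5 CPM in the 12. Their gap to the 12 is fixed by that choice and shows nothing more. The summed level was 169 CPM in HF 6, 163 in HF 2, 43.2 in LF 6 and 37.7 in LF 3, against 5.54 to 8.65 in the 12. HF 2 held these genes at nearly the level of HF 6, with a median log2 ratio of -0.02 and a range from -0.53 (1700003F12Rik) to 0.51 (Lrrc46). The median ratio to HF 6 was -1.96 for LF 3, from -3.03 (4933411K16Rik) to -0.56 (Eid3), and -1.77 for LF 6, from -2.89 (Spz1) to -0.49 (Fank1). The rule genes, by comparison, summed to 116 CPM in HF 6 and 74.0 in HF 2.

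LF 3 and LF 6 differed in which genes stood out. Of the genes above, LF 3 had more Prm1, Tnp1 and Tnp2, and LF 6 had more Prm2, Smcp, Tcp11 and 4933411K16Rik. With 1 library each, these differences have no replicate check. LF 5 and HF 5 had the highest rule gene sums among the 12. Over the 31 low followers they were near the top of the 12, with 8.55 CPM each, against 8.65 in HF 1 and 5.54 in LF 2. By mean log2 CPM of these genes HF 5 was the highest of the 12 at -1.39, with LF 5 and HF 1 at -1.46. The 31 were chosen to be low in the 12, which limits any trace there. HF 5 was among the highest 3 of the 12 for 20 of 50 followers, where 25% of all genes ranked so, and LF 5 for 15, where 18.4% of all genes did. The single highest of the 12 was more often HF 1 or HF 4, for 8 followers each (16%, against 6.83% and 6.39% of all genes). It was HF 5 for 5 followers (10%, against 6.36%) and LF 5 for 2 (4%, against 3.63%). HF 4 had a rule gene sum of only 0.0874 CPM.

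**Figure D4:**
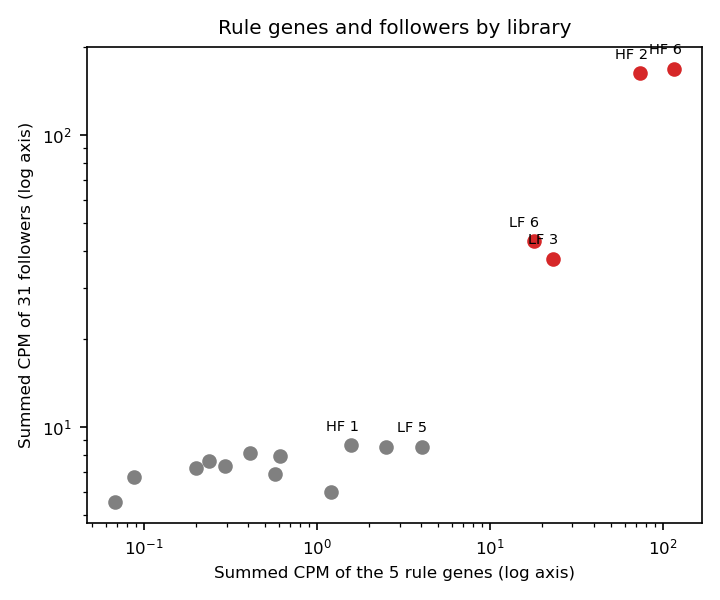
Summed CPM of the 5 rule genes (x axis) and of the 31 followers with a mean under 0.5 CPM in the 12 libraries (y axis), both on log axes, 1 point per eWAT library, testis-rich libraries in red. The genes were chosen to be high in the 4, which fixes the gap to the 12 (5.54 to 8.65 CPM); among the 4 the sums run from 37.7 in LF 3 to 169 in HF 6.

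Markers of the other cells of the male tract gave no call, but few of them could be tested. Of 15 Sertoli cell genes 4 were measured, of 11 Leydig cell genes 6, and of 13 seminal vesicle and prostate genes 1. Sox9, which Sertoli cells express, averaged 5.97 CPM in the 4 and 4.63 in the 12. Insl3, a hormone of Leydig cells, averaged 4.96 and 4.54, and Star, which supplies cholesterol for steroid synthesis, 6.12 and 8.70. The summed level of the Leydig list was 173 to 342 CPM in the 4 and 145 to 313 in the 12. Of 30 genes listed for the epididymis, none was among the 15987 tested. Every gene in the table reached 0.5 CPM in at least 4 libraries, so tract genes present in fewer could not be called.

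Adipocyte genes overlapped between the groups. All 21 adipocyte genes were measured, and their summed level was 68400 to 85100 CPM in the 4 and 68500 to 103000 in the 12, with a median log2 fold change of -0.01 and no call. Fabp4 and Cidec, which adipocytes use to carry fatty acids and to coat lipid droplets, both had a log2 fold change of -0.01. Lists for fibroblasts (median -0.14), endothelium (0.08), smooth muscle (-0.15), lipogenesis (-0.07) and ribosomal proteins (0.01) had no call either.

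**Figure D5:**
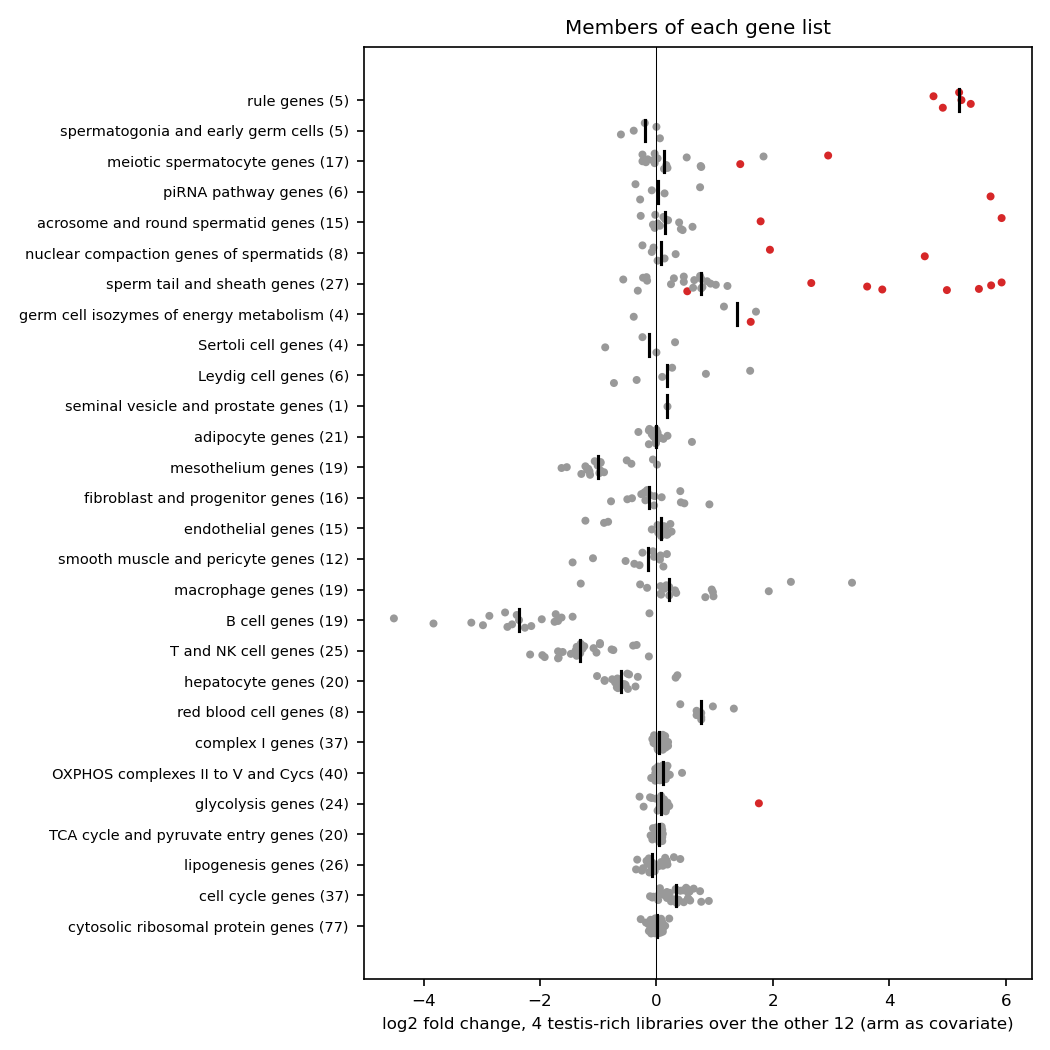
Log2 fold change of each measured list member, 4 testis-rich libraries over the other 12 with arm as covariate, 1 point per gene, red where called higher, with a black bar at the list median and the number measured in brackets. Calls lie in the germ cell lists, apart from Pgam2 in the glycolysis list, and the B cell list is shifted furthest to the left, with a median of -2.36 and no call.

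None of the measured B cell, T and NK cell or mesothelium genes passed. The B cell median was -2.36, with 0 of 19 measured members positive, and became 0.45 without LF 2, HF 3 and HF 5, all of which are among the 12. Cd79a, a part of the B cell receptor, stood at 92.5 CPM in LF 2, 41.7 in HF 5 and 19.4 in HF 3, and at 3 to 5.56 in the 4. Ighm, the heavy chain of immunoglobulin M, was chosen after its values were seen: it was 205 to 309 CPM in the 4 and 331 to 3530 in the 12, and did not pass (adjusted p = 0.231). All 4 libraries lay below all 12 for 11 genes (0.0688%), none of them called. The T and NK cell median was -1.31, and -0.52 without those 3 libraries. The mesothelium median was -1.01, with 1 of 19 positive, and -0.89 without them. The hepatocyte list, whose genes are not those of fat, had a median of -0.61 in eWAT, and -0.01 without the 3 libraries.

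The 2 genes called lower also had their peak in LF 2. Ms4a4b, a T cell membrane protein gene, was at 3.6 CPM in LF 3, 1.62 in LF 6, 1.82 in HF 2 and 1.77 in HF 6, and at 1.57 to 14 in the 12, the highest being LF 2 (log2 fold change -1.60 ± 0.31, adjusted p = 0.0311). The noncoding transcript 5830428M24Rik was at 0 to 0.256 CPM in the 4 and at 0.196 to 3.65 in the 12, again highest in LF 2 (-3.34 ± 0.65, adjusted p = 0.03). The groups overlapped for both genes, and neither was called without LF 2.

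Some macrophage genes had high levels in part of the 4 libraries. The list median was 0.22, with 0 of 19 called. Gpnmb, a glycoprotein of lipid-laden macrophages, was at 468 CPM in LF 3, 102 in LF 6, 757 in HF 2 and 103 in HF 6, against 17.7 to 237 in the 12 (adjusted p = 0.364). Trem2, a lipid receptor of such cells, was at 102, 34.2, 98.6 and 19.4 CPM, against 4.02 to 40.5. Spp1, which encodes osteopontin, reached 157 CPM in LF 3 and 1.43 in HF 6. High values in LF 3 and HF 2 thus did not follow the testis order, in which HF 6 was first.

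Of the 23 genes whose groups did not overlap with the 4 above and which were not called, Hmox1 is named here after its values were seen. This haem oxygenase gene, induced by haem and oxidative stress, was at 462 CPM in LF 3, 93.6 in LF 6, 61.0 in HF 2 and 74.9 in HF 6, against 35.5 to 57.1 in the 12 (1.29 ± 0.42, adjusted p = 0.353). Foxm1, a regulator of mitosis, was at 4.69 to 7.31 CPM in the 4 and 1.28 to 4.26 in the 12 (adjusted p = 0.269). For all 8 measured red blood cell genes the fold change was positive, with a median of 0.77, and none passed. Cell cycle genes had a median of 0.33 with 34 of 37 positive, made up of 0.77 within LF and 0.00 within HF, and none of them passed.

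Genes of mitochondrial respiration had medians of opposite sign in the arms and gave no call. Lists of other function had the same pattern of signs. Within LF the 37 complex I genes had a median of 0.28, with 35 higher in LF 3 and LF 6. Within HF the median was -0.10, with 4 higher in HF 2 and HF 6. The mean log2 CPM of the list was 6.54 in LF 3 and 6.44 in LF 6, against 6.20 in LF 2 and 6.28 in LF 5. In HF it was 6.15 in HF 2 and 6.12 in HF 6, inside the 6.10 to 6.34 of the other 4. The difference between the arms passed for 0 of the 37 (smallest adjusted p 0.403), with 16 at an unadjusted p under 0.05. The arms share no library here, and 4 LF libraries in all decide the LF value. For the other OXPHOS complexes the medians were 0.32 and -0.08, and for the TCA cycle 0.32 and -0.18. The LF and HF medians were 0.25 and -0.04 for glycolysis, where Pgam2 was called, 0.19 and -0.16 for lipogenesis, 0.18 and -0.13 for ribosomal proteins and 0.15 and -0.18 for adipocyte genes.

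Liver was not used to choose the libraries, so it gave a test independent of the rule. The 4 liver libraries with the same arm and number (LF 3, LF 6, HF 2, HF 6) were set against the other 11, by the same model. That equal numbers mean the same animal is not stated in the labels. No gene was called by edgeR (0 of 13677, or 0%), with 564 at an unadjusted p under 0.05 (4.12%) and a smallest adjusted p of 0.659, for Dock2. DESeq2 called 3 genes, Dock2, Nrep and Gpam, none of them a follower, and limma voom called 0. None of the 5 rule genes was in the liver table. Of the 50 followers 9 were, 4 of them higher in the 4 liver libraries, with a median log2 fold change of 0.00. Odf2 averaged 16.9 ± 2.68 CPM (SD, n = 4) in the same-numbered livers and 17.1 ± 1.36 (n = 11) in the others. Gapdhs averaged 2.55 ± 0.786 and 2.34 ± 0.703, and Slc2a5 18.3 ± 6.12 and 18.9 ± 4.45. Neither these differences nor those of the other 6 followers exceeded the spread between libraries by this test (adjusted p = 0.999 for each).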

How the data were processed

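RNA-seq libraries were made from total RNA of 16 eWAT and 15 liver samples. The submitters' processing notes name STAR and the build GRCm38.p6. How reads were counted, on which annotation and with which strand setting, no source used here says. The deposited values used are whole-number counts per gene, from which the authors had removed genes of low CPM. The deposited RPKM values were not used. Totals ran from 9278083 to 27230205 counts in eWAT and from 9225373 to 17268415 in liver, and 3 counts, a floor of detection, correspond to 0.115 to 0.318 CPM in eWAT. Symbols came from a GENCODE annotation (15969 of 15987 eWAT identifiers matched). Columns were matched to samples by their labels.

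Counts were fitted with edgeR 4.0.16 in R 4.3.3 (TMM, robust quasi-likelihood, arm as covariate, 12 residual degrees of freedom) and p-values were adjusted by Benjamini-Hochberg at 0.05. DESeq2 1.42.0 and limma 3.58.1 served as alternatives. The fits were tested on simulated data. Changes were planted there only in genes of higher average level, so that test does not cover genes near 0. CPM used TMM-scaled library sizes, and log2 CPM a prior count of 2. The ± value of a log2 fold change is that fold change divided by the square root of the test's F statistic. It approximates a standard error and is least reliable for genes near 0 in the 12 libraries. Other alternatives were size factors, a stricter filter, the covariate, the libraries entered, the replicate number as a block and leaving out each LF and HF library. Members and gene lists were chosen with earlier results of these data known. Named were the rule genes, up to 4 members per list of highest CPM, the 12 followers of highest level without overlap, the 8 of largest fold change and the 2 lower genes. Other genes were named after their values were seen.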

Additional observations from a re-analysis of the deposited data

Results flagged for a closer look

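In 159 groups of 4 to 6 eWAT libraries (a gene or list in 1 arm), 9 had a library that stood apart from the rest by Dixon's criterion, which chance alone meets in about 1 of 20 groups. Of the testis-rich libraries LF 6 appeared for 2 lists. Its germ cell isozymes of energy metabolism had a mean log2 CPM of 1.57, against 0.92 to 1.00 in the other LF libraries, so that LF 3, also testis-rich, was not above LF 2 and LF 5 there. Its red blood cell genes stood at 5.38, against 4.05 to 4.15.

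Among the other 12 libraries HFLF 3 had Tnp2 at a log2 CPM of -0.84, against -2.92 to -2.24 in the rest of HFLF. It was the only rule gene flagged outside the 4 libraries. The criterion looks at the highest and lowest library of an arm. In LF and HF the highest were testis-rich, so the traces in LF 5 and HF 5 could not be flagged. Mael in HFLF 1 was at -2.54, where the other HFLF libraries had no count (-2.92). HFLF 1 also had Leydig cell genes at 0.96 (1.70 to 2.07 in the others) and hepatocyte genes at 3.43 (0.96 to 1.70). HFLF 6 had mesothelium genes at 0.15 (3.45 to 4.55). Smooth muscle genes in HFLF 4 were at 6.44 (4.88 to 5.23), and endothelial genes in HF 1 at 6.63 (5.93 to 6.17).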

How the results depend on the processing

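The 55 higher genes became 54 with RLE size factors and 52 with library size alone. DESeq2 called 87 higher and 51 lower, 18 whose split differed between arms and 3 in liver, and limma voom 59 higher and 0 lower; both kept all 55. A filter of 1 CPM in 5 libraries left 19 of the 55 to test and called 17 of them, with 0 lower. Without the arm covariate 86 were higher (53 shared) and 1 lower. LF and HF libraries alone gave 41 higher (all shared) and 0 lower. Without LF 2, HF 3 and HF 5 there were 23 higher and 0 lower. Within LF 1 was higher and 0 lower, within HF 63 and 0. Leaving out 1 library gave 40 (without HF 2) to 77 (without LF 3) higher, 0 to 19 lower and 0 to 111 differing between arms. The lower count was 19 without LF 5, 11 without HF 1, 10 without HF 4, 4 without LF 3, 1 without LF 6, HF 2 or HF 6, and 0 without LF 2, HF 3 or HF 5. The count differing between arms was 111 without LF 6 and 1 without LF 3. The cause was not tested. Liver stayed at 0 calls in all but DESeq2. Of 489 values for 24 named genes, 405 kept their call, 84 lost it and 0 reversed; the 24 include the 5 rule genes, whose values set the division, so the tally is no support.

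The replicate block gave 25 higher (15 shared) and 1 lower, but equal numbers share only a number: deviations of 14 same-numbered pairs correlated at -0.34 to 0.38, 7 of them over 0.1. Genes near the floor of 0.115 to 0.318 CPM limit what the 12 libraries can show.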
